A study of Mus musculus with 17 samples.

Results

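The UDP-glucuronosyltransferases and the cytosolic sulfotransferases of mouse kidney cortex were examined as 1 module of drug and steroid conjugation. Members were the protein-coding genes of the deposited count table whose symbols begin with Ugt or Sult followed by a digit, which gave 43 of 21637 protein-coding genes and of 48795 genes in all. They were 22 Ugt genes, of which 9 lie in the Ugt1a locus, 3 are Ugt2a, 7 are Ugt2b and 2 are Ugt3a genes and 1 is Ugt8a, and 21 Sult genes. RNA had been sequenced from renal cortex, with 5 libraries labelled WT, 5 labelled GCERAd, 3 labelled TRACK and 4 labelled GCERAdT. Each library carries a replicate number of its own in the labels, but WT 1 and 2 and GCERAd 2 and 3 may be repeat libraries. GCERAd mice carried floxed Atf4 alleles and a tamoxifen-dependent Cre recombinase driven by the Ggt1 promoter, which is active in proximal tubules, and had received tamoxifen at 6 weeks of age. The study's methods describe a fast in metabolic cages before collection, 1 month after the first injection. Whether WT mice received tamoxifen is not stated. TRACK is a transgenic mouse model of kidney cancer, and GCERAdT is labelled as TRACK with the ATF4 knockout. The transgene of TRACK, the age and treatment of the TRACK and GCERAdT mice and the sex of any group are not given in the sources used here. The design implied 4 comparisons of groups, namely GCERAd against WT, GCERAdT against TRACK, GCERAdT against GCERAd and TRACK against WT, and GCERAd was also compared with TRACK. GCERAd and WT differed in the ATF4 deletion, in the Cre transgene and, by the sex-linked transcripts given below, in sex. These comparisons share libraries and are therefore not independent of each other.

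UDP-glucuronosyltransferases are membrane enzymes of the endoplasmic reticulum that attach glucuronic acid from UDP-glucuronic acid to bilirubin, steroids, bile acids, drugs and other lipophilic compounds. Cytosolic sulfotransferases attach sulfate from the donor PAPS to phenols, catecholamines, steroids and sterols. In kidney both families are used for the local inactivation and excretion of such compounds, mainly in the proximal tubule, while the related enzyme Ugt8a uses UDP-galactose to make galactosylceramide, the precursor of the sulfatides of renal membranes.

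The sequence of the Ugt1a locus is shown first because it limits what a count on each of its genes means. On the plus strand of chromosome 1 (GENCODE M21, GRCm38), each of the 9 Ugt1a genes starts from a different first exon, of 879 to 954 bases, that is spliced to the same second exon at chr1:88215044-88215175, and the later exons are also common. The sequences below run 5′ to 3′ across that splice junction for the 4 genes with the highest counts, with 30 bases of the gene's own first exon in lower case and 30 bases of the shared second exon in capitals.
Ugt1a10: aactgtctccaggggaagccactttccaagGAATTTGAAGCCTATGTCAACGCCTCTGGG
Ugt1a7c: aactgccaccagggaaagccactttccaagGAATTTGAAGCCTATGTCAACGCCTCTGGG
Ugt1a2: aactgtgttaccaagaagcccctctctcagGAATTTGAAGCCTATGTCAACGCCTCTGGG
Ugt1a1: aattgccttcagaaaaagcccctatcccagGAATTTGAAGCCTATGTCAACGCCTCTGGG
The capitals were identical in all of them, and the lower-case bases of Ugt1a2 were the same as those of Ugt1a5. Exon bases shared with another gene made up 50.3% to 60.6% of the exon bases of the 9 genes. Ugt1a7c was annotated with another 998 unshared bases at chr1:88219005-88220002, at the 3′ end of the locus. In Ugt1a6a only 95 bases of the first exon of the main transcript were unshared, and most of its unshared bases lay in other transcripts of the gene. How reads on the shared exons were assigned is not stated, so levels of the Ugt1a genes per length are given here both per merged exon base and per unshared base.

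The second pair of sequences belongs to Ugt2b37 and Ugt2b38, genes of 1 cluster on the minus strand of chromosome 5 that were both higher in GCERAd and TRACK than in WT libraries. Their coding sequences were identical at 94.1% of positions. The 250 bases before their start sites (RefSeq, GRCm38.p6), at chr5:87254789-87255038 for Ugt2b37 and chr5:87424204-87424453 for Ugt2b38, are given 5′ to 3′ on the minus strand, with capitals at the bases that differ where the stretches overlap. RefSeq places the start of Ugt2b37 slightly inside the gene as GENCODE draws it.
Ugt2b37: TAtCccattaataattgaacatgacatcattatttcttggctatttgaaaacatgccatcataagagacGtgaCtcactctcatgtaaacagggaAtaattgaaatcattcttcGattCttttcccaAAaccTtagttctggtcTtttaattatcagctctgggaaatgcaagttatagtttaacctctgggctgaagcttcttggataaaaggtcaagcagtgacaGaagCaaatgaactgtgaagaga
Ugt2b38: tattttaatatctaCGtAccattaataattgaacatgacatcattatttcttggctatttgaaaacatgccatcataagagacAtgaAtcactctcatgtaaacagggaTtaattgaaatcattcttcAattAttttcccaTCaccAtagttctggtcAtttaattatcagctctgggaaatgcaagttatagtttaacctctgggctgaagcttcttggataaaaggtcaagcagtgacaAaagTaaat
In their overlap 222 of 236 positions matched, or 94.1%. In all, 37 of the 43 members had a promoter in the table of RefSeq promoters (250 bases before to 50 after a start site). The letters GCGTG, the core of the site of the aryl hydrocarbon receptor, were found on either strand in promoters of 6 members and in 32.4% of all 32851 promoters. TGATGNAAT, the composite element of C/EBP and ATF factors, was found for 1 member, Sult1e1, and in 0.965% of all promoters. Neither of these motifs lay in the windows of Ugt1a2, Ugt1a7c, Ugt2b37, Ugt2b38 or Ugt2b34, which is a description of these windows only.

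Libraries held between 53688512 and 71364561 counts on genes. Xist, the X-inactivation transcript, was at 148 to 423 CPM in WT libraries, at 6.07 CPM in GCERAd 1 and under 1 CPM elsewhere, whereas the Y-linked Ddx3y had no count in WT libraries and 49.8 to 80.1 CPM in all others, so that sex and genotype cannot be told apart in any comparison with WT. Atf4 was lower in GCERAd than in WT libraries (log2 fold change -0.38, edgeR adjusted p = 0.022) but was not lower in libraries labelled GCERAdT than in TRACK (0.17, adjusted p = 0.37), and the counts do not separate its floxed exons. GCERAd 4 and 5 stood apart from GCERAd 1, 2 and 3 across all genes. By their share of counts on processed pseudogenes, libraries fell into 2 kinds, with all TRACK libraries in 1 of them, and WT 1 and 2 and GCERAd 2 and 3 may be repeat libraries.

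Of the 43 members, 15 reached a mean of 1 FPKM (counts per kilobase of exon, scaled to library depth, the scale used here to compare genes) in at least 1 group, 22 had counts but stayed below, and 6 had no count in any of the 17 libraries. Per unshared base, Ugt1a6b would also have reached this level, at 1.25 in GCERAd and 1.03 in the libraries labelled GCERAdT. The detected set held 11 Ugt genes and 4 Sult genes. In WT cortex, per merged exon base, the summed level of the Ugt genes was 775.6 ± 42.8 FPKM (SD, n = 5), of which Ugt3a2, whose human counterpart uses UDP-glucose and UDP-xylose, took 42.6% and Ugt1a2 took 33.8%. In GCERAd cortex the sum was 1154 ± 133 FPKM (n = 5), and Ugt1a2 took 0.14% of it and Ugt2b38 took 30.4%, compared with 4.06% in WT. In TRACK the sum was 768 ± 15.5 FPKM (n = 3), with 55.2% on Ugt3a2 and 17.2% on Ugt2b38. In libraries labelled GCERAdT it was 833 ± 54 FPKM (n = 4), with 47.1% and 26.9%. These sums and shares depend on the length used for the Ugt1a genes. Per unshared base the sum was 1216 ± 60.8 in WT, 1248 ± 107 in GCERAd, 858 ± 18.4 in TRACK and 896 ± 60 in the libraries labelled GCERAdT, so that the rise of the sum from WT to GCERAd was no longer seen and TRACK lay below WT. On that scale Ugt1a2 took 52.8% and Ugt3a2 27.2% of the WT sum, the reverse of their order per merged exon base. On both scales the make-up of the Ugt message differed mostly between WT and the 3 other groups, in which Ugt1a2 took on average under 1% and Ugt2b38 and Ugt2b37 took a larger share. The Sult message was nearly all Sult1d1, at 91.9% in WT, 88.6% in GCERAd, 91% in TRACK and 90.9% in GCERAdT libraries, of a sum of 754 ± 92.5, 554 ± 121, 748 ± 64.8 and 550.5 ± 92.5 FPKM.

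Counts of members were read against the share of all tested genes called by the same rule, an adjusted p of at most 0.05 in edgeR's quasi-likelihood test among genes with a mean of at least 1 FPKM in either group. For GCERAd against WT, 14 members were tested, of which 5 were higher (Ugt2b37, Ugt2b38, Ugt8a, Ugt1a7c and Ugt3a2) and 5 lower (Ugt1a2, Ugt1a1, Ugt2b34, Sult1b1 and Sult1d1), with 14.1% of all genes called higher and 13.5% lower. The median log2 fold change of the tested members was -0.14 and that of all genes was -0.00. In TRACK against WT, 15 members were tested, and 7 were higher and 3 lower, against backgrounds of 23% and 22.6%, with a median of 0.37 for the members and -0.01 for all genes. The higher members were Ugt2b37, Ugt8a, Ugt2b5, Ugt2b38, Ugt1a7c, Sult1a1 and Ugt3a2, and the lower ones were Ugt1a2, Ugt2b34 and Ugt1a1. Comparing the libraries labelled GCERAdT with TRACK, 3 of 15 members were higher (Ugt2b37, Ugt2b38 and Ugt2b34) and 3 lower (Ugt1a10, Sult1a1 and Ugt8a), where 2.81% and 4.28% of all genes were called, and the medians were -0.09 and 0.01. All 6 of these calls missed the threshold when all 17 libraries were fitted with library kind as a covariate in edgeR, with an unadjusted p under 0.05 for 6 members. In that fit without the covariate, the 3 higher calls missed it. Between the libraries labelled GCERAdT and GCERAd, 2 of 15 members were higher (Ugt1a1 and Ugt2b34) and 4 lower (Ugt8a, Ugt1a7c, Sult1c2 and Ugt3a2), where 9.39% and 9.79% of all genes were called, with medians of -0.11 and -0.00. In GCERAd against TRACK, 3 of 15 members were higher (Ugt2b37, Ugt2b38 and Ugt8a) and 1 was lower (Sult1a1), where 8.68% and 9.42% of all genes were called, with medians of -0.01 and 0.00. In bulk cortex, fewer cells of a type and less RNA per cell cannot be told apart in any of these values.

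**Figure D1:**
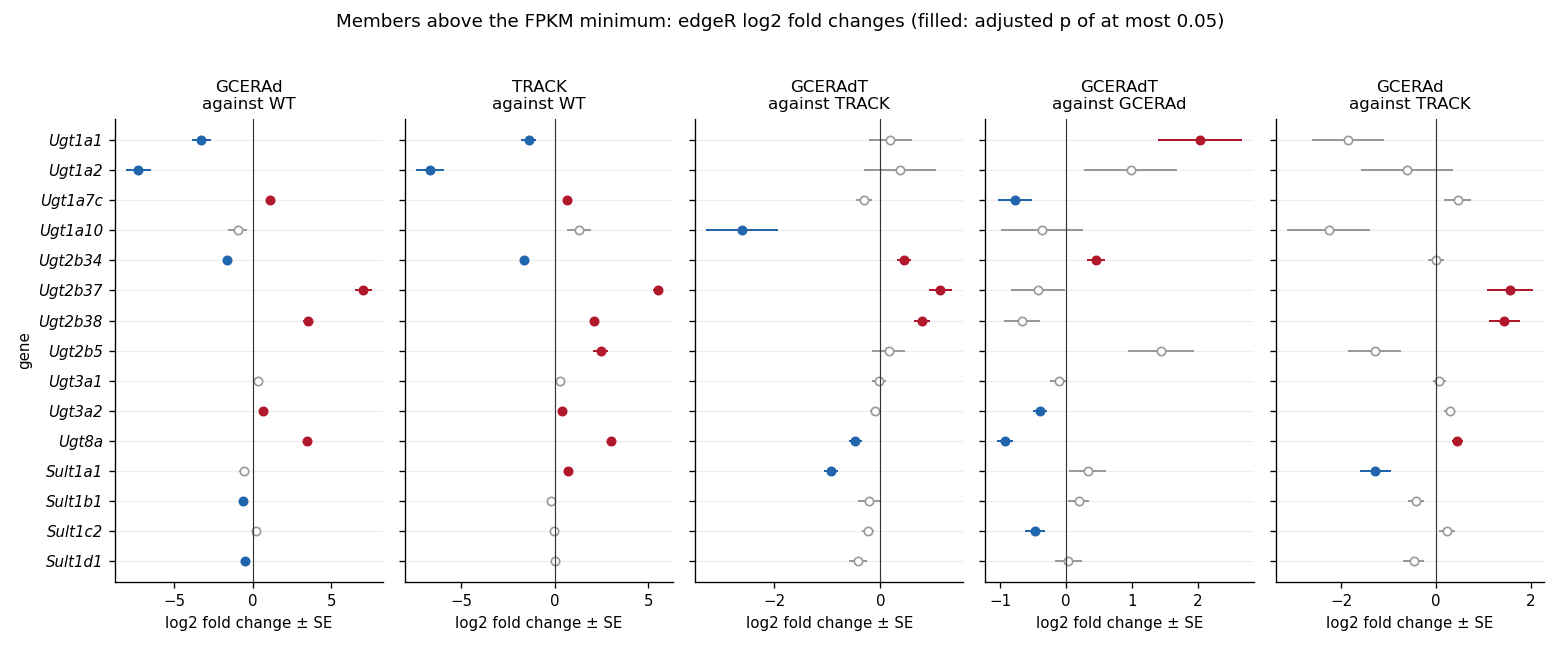
Log2 fold changes (horizontal axis) of the 15 detected members in 5 comparisons of groups, with bars of ± 1 standard error and filled points where the adjusted p was at most 0.05. Ugt2b5 has no point for GCERAd against WT, where it was under the FPKM minimum. Ugt1a2 stood at -7.28 and -6.67 in both comparisons with WT and between -0.62 and 0.98 in the others, while Ugt2b37 and Ugt2b38 were higher in all comparisons except GCERAdT against GCERAd.

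Within the Ugt1a locus, Ugt1a2 (chr1:88200601-88218997) was the main gene of WT cortex. It was at 572, 635, 540.0, 549 and 597 CPM (TMM-scaled counts, the scale of all single-library values here) in the 5 WT libraries. In GCERAd it was at 12.0, 1.35, 1.32, 2.49 and 1.13 CPM, in TRACK at 0.828, 4.26 and 11.7 CPM, and in the libraries labelled GCERAdT at 6.48, 9.85, 8.87 and 3.54 CPM. Every WT library was therefore far above every other library, and the 3 other groups overlapped. The log2 fold change was -7.28 ± 0.73 (SE, edgeR adjusted p = 3.26e-05) in GCERAd and -6.67 ± 0.69 (adjusted p = 5.8e-05) in TRACK, both against WT. Libraries labelled GCERAdT differed from TRACK by 0.37 ± 0.67 (adjusted p = 0.761) and from GCERAd by 0.98 ± 0.68 (adjusted p = 0.359). The highest GCERAd value came from GCERAd 1, the GCERAd library that also held Xist counts, and whether these are linked was not tested.

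Ugt1a1, the bilirubin glucuronosyltransferase (chr1:88211959-88218997), fell less far. Its values were 18.0, 22.5, 12.6, 19.6 and 16.3 CPM in WT, 0.295, 0.875, 0.838, 4.57 and 2.74 CPM in GCERAd, 3.31, 5.58 and 11.1 CPM in TRACK and 6.03, 9.24, 9.90 and 4.88 CPM in the libraries labelled GCERAdT. WT lay above all other groups without overlap, and GCERAd lay below the libraries labelled GCERAdT. Against WT the log2 fold change was -3.27 ± 0.55 in GCERAd (edgeR adjusted p = 0.00121) and -1.40 ± 0.34 in TRACK (adjusted p = 0.00729), the latter passing the threshold no longer when all 17 libraries shared 1 fit (adjusted p = 0.0604). Libraries labelled GCERAdT were 4.11-fold above GCERAd (2.04 ± 0.62, adjusted p = 0.0437), and without GCERAd 1, 2 and 3 that difference was 1.08 with an adjusted p of 0.059. It also missed the threshold without GCERAd 2 (1.87, adjusted p = 0.0906), without GCERAd 3 (1.87, 0.0909) and without any 1 of the 4 libraries labelled GCERAdT (at least 1.88, highest adjusted p = 0.107).

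Ugt1a7c (chr1:88095062-88220002) took the opposite course and held most of the counts of the locus once Ugt1a2 was low. WT libraries were at 134, 149.7, 119, 148 and 142 CPM, GCERAd at 182, 229.7, 266, 441 and 383 CPM, TRACK at 244, 219 and 191 CPM, and libraries labelled GCERAdT at 159.5, 153, 160.2 and 223 CPM. All libraries of the 3 other groups lay above all WT libraries, and GCERAd 4 and 5 lay above all others. It was 2.18-fold higher in GCERAd (log2 1.12 ± 0.21, edgeR adjusted p = 0.00201) and 1.58-fold higher in TRACK (0.66 ± 0.10, adjusted p = 0.000551) than in WT. With library kind as a covariate over all 17 libraries the TRACK difference was 0.29 with an adjusted p of 0.275. Libraries labelled GCERAdT were lower than GCERAd (-0.78 ± 0.24, adjusted p = 0.046) with overlapping values, and without GCERAd 4 and 5 the difference was -0.36 with an adjusted p of 0.123. This call was also lost without GCERAd 3, 4 or 5 (-0.80, -0.59 and -0.66, highest adjusted p = 0.0867) and without GCERAdT 1, 2 or 3 (-0.74, -0.72 and -0.73, highest adjusted p = 0.125).

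Ugt1a10 (chr1:88055388-88219004), which is used mainly outside the liver, was at 14.3, 14.9, 6.41, 11.8 and 14.9 CPM in WT and at 0.574, 4.46, 4.75, 11.6 and 10.9 CPM in GCERAd, a difference that did not pass the test (log2 -0.95 ± 0.55, edgeR adjusted p = 0.223). TRACK libraries were at 9.90, 9.91 and 72.0 CPM and those labelled GCERAdT at 4.84, 4.14, 7.14 and 3.68 CPM, without overlap. The log2 difference of -2.61 ± 0.65 (adjusted p = 0.0427) rested on TRACK 3, without which it was -0.97 with an adjusted p of 0.0676. Leaving out any 1 of the libraries labelled GCERAdT gave -2.86 to -2.49 with a highest adjusted p of 0.124, and the replicate block gave -1.86 (adjusted p = 0.0576).

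Over the locus, summed counts were 750 ± 53.9 CPM in WT (SD, n = 5), 314 ± 112 in GCERAd (n = 5), 263 ± 24.2 in TRACK (n = 3) and 196 ± 28.3 in the libraries labelled GCERAdT (n = 4). Ugt1a2 took 77.2% of the counts of the locus in WT and 1.6%, 2.04% and 3.83% in the other groups, and Ugt1a7c took 18.5% in WT and 95.4%, 83.5% and 88.3%. Per kilobase of exon not shared with another gene, Ugt1a2 stood at 643 ± 42.6 CPM and Ugt1a7c at 72.4 CPM in WT, and at 4.07 and 157 CPM in GCERAd. The order of both genes was thus the same per unshared base as in counts. Of the 1915 unshared bases of Ugt1a7c, however, 998 lie at the 3′ end of the locus, past the shared exons. Its counts and its level per unshared base are therefore not specific to its first exon. Counts of Ugt1a6a, Ugt1a6b, Ugt1a9, Ugt1a5 and Ugt1a8 were all under 3 CPM in each library.

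**Figure D2:**
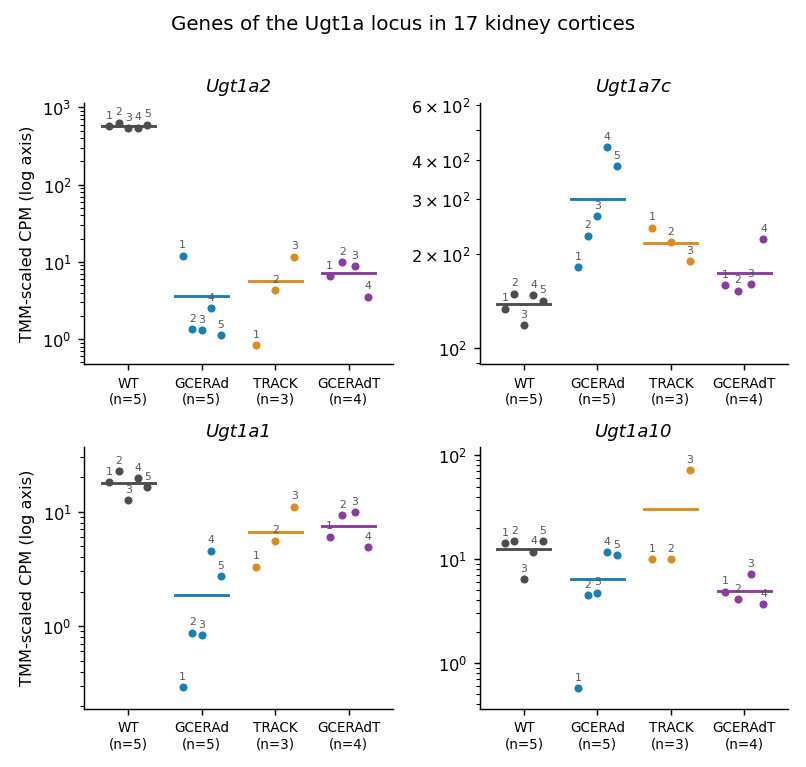
CPM (log axis, TMM-scaled) of Ugt1a2, Ugt1a7c, Ugt1a1 and Ugt1a10 in each library, by group, with points numbered by replicate. The 5 WT libraries sit at 540.0 to 635 CPM for Ugt1a2, above all others, and below all others for Ugt1a7c.

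In the Ugt2b cluster, whose enzymes conjugate mainly steroids and bile acids, the members moved in different directions. Ugt2b37 (chr5:87240493-87254804, minus strand) was nearly absent from WT cortex, at 0.892, 1.11, 1.52, 0.987 and 0.936 CPM. GCERAd libraries were at 236, 179, 168, 64.3 and 60.7 CPM, TRACK at 38.0, 56.6 and 50.4 CPM, and libraries labelled GCERAdT at 72.0, 121, 124 and 103 CPM. WT was below all other libraries, TRACK was below GCERAd and below the libraries labelled GCERAdT without overlap, and GCERAd 4 and 5 were the lowest of their group. The log2 fold change against WT was 7.04 ± 0.46 in GCERAd (edgeR adjusted p = 1.4e-06) and 5.49 ± 0.18 in TRACK (adjusted p = 1.53e-07). The libraries labelled GCERAdT exceeded TRACK 2.2-fold (1.14 ± 0.20, adjusted p = 0.0114). That rise missed the threshold when all 17 libraries shared 1 fit, without and with library kind as a covariate (highest adjusted p = 0.137). GCERAd exceeded TRACK by 1.55 ± 0.46 (adjusted p = 0.048), and without GCERAd 1, 2 and 3 by 0.35 (adjusted p = 0.196). That excess missed the threshold also without GCERAd 1, 2 or 3 singly (1.29, 1.45 and 1.47) and without any 1 of the 3 TRACK libraries (1.41, 1.68 and 1.59, highest adjusted p = 0.151).

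Ugt2b38 (chr5:87409942-87424203, minus strand) started from a higher level and followed the same order of groups. It was at 58.6, 65.9, 65.3, 54.4 and 54.2 CPM in WT, 843, 853, 870.2, 434 and 393 CPM in GCERAd, 271, 274 and 207 CPM in TRACK and 365, 434, 487 and 412 CPM in the libraries labelled GCERAdT. Again WT was lowest and TRACK lay below GCERAd and below the libraries labelled GCERAdT without overlap. It was 11.5-fold higher in GCERAd (log2 3.52 ± 0.25, edgeR adjusted p = 2.37e-06) and 4.23-fold higher in TRACK (2.08 ± 0.11, adjusted p = 8.89e-07) than in WT. Libraries labelled GCERAdT exceeded TRACK 1.72-fold (0.78 ± 0.13, adjusted p = 0.00936). This was lost when all 17 libraries shared 1 fit, without and with library kind as a covariate (highest adjusted p = 0.102). GCERAd exceeded TRACK 2.7-fold (1.44 ± 0.31, adjusted p = 0.0151), which missed the threshold without any 1 of the 3 TRACK libraries (1.32 to 1.51, highest adjusted p = 0.061). Between the libraries labelled GCERAdT and GCERAd it differed by -0.67 ± 0.26 (adjusted p = 0.0941), by -0.76 with an adjusted p of 0.0194 with the replicate block, and by 0.07 without GCERAd 1, 2 and 3. That block also put libraries of the same kind together. Counts on Ugt2b37 were 1.82% of those on Ugt2b38 in WT and 19.7%, 19.7% and 24.5% in GCERAd, TRACK and the libraries labelled GCERAdT. Of the 51-base stretches of transcript, 36.8% for Ugt2b38 and 17.7% for Ugt2b37 also occur in another gene, so part of their reads could have been split or dropped in counting.

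Ugt2b34 (chr5:86889767-86906937, minus strand) moved the other way. WT libraries were at 140.1, 157, 106, 153 and 139.8 CPM, GCERAd at 49.7, 46.5, 51.1, 38.4 and 35.6 CPM, TRACK at 39.9, 41.9 and 51.7 CPM, and libraries labelled GCERAdT at 57.9, 61.2, 65.4 and 55.9 CPM. WT lay above the rest, and the libraries labelled GCERAdT lay between WT and the other 2 groups without overlap. It was 3.12-fold lower in GCERAd (log2 -1.64 ± 0.14, edgeR adjusted p = 8.21e-06) and 3.1-fold lower in TRACK (-1.63 ± 0.14, adjusted p = 2.21e-05) than in WT. Libraries labelled GCERAdT were 1.37-fold above TRACK (0.45 ± 0.11, adjusted p = 0.043) and 1.36-fold above GCERAd (0.45 ± 0.12, adjusted p = 0.0267), while GCERAd and TRACK differed by -0.01 ± 0.15 (adjusted p = 0.963). The first of these rises was lost without TRACK 1 or 2 (0.37 and 0.41, highest adjusted p = 0.169), and both were lost without GCERAdT 1, 2 or 3 (0.40 to 0.47, highest adjusted p = 0.116). The rise over TRACK was also lost when all 17 libraries shared 1 fit.

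Ugt2b5 (chr5:87124960-87140318, minus strand), 97% identical to Ugt2b38 in coding sequence, was low, at 0.410 to 0.752 CPM in WT with a median of 0.716, and at 2.03, 2.53, 1.16, 0.543 and 0.453 CPM in GCERAd. TRACK was at 3.37, 2.54 and 4.00 CPM and the libraries labelled GCERAdT at 2.98, 4.45, 4.57 and 2.55 CPM. TRACK exceeded WT 5.44-fold without overlap (log2 2.44 ± 0.33, edgeR adjusted p = 0.000277). Libraries labelled GCERAdT exceeded GCERAd by 1.44 ± 0.49 (adjusted p = 0.0636), and by 1.36 with an adjusted p of 0.0215 with the replicate block, which also put libraries of the same kind together. With 41.2% of its 51-base stretches found in other genes, its counts may include reads of its neighbours.

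Ugt8a, the ceramide galactosyltransferase (chr3:125865271-125938619, minus strand), separated all 4 groups. It was at 11.8, 13.0, 12.3, 8.32 and 11.2 CPM in WT, 143, 118, 131, 119 and 116 CPM in GCERAd, 87.1, 96.2 and 91.6 CPM in TRACK and 54.9, 68.1, 73.2 and 64.9 CPM in the libraries labelled GCERAdT. No pair of groups overlapped, with WT lowest and GCERAd highest. It was 11.1-fold higher in GCERAd (log2 3.48 ± 0.13, edgeR adjusted p = 1.37e-08) and 8.15-fold higher in TRACK (3.03 ± 0.12, adjusted p = 1.88e-07) than in WT, and 1.36-fold higher in GCERAd than in TRACK (0.45 ± 0.10, adjusted p = 0.0144). The libraries labelled GCERAdT were 1.39-fold below TRACK (-0.47 ± 0.11, adjusted p = 0.031) and 1.91-fold below GCERAd (-0.93 ± 0.11, adjusted p = 0.000292). The last difference passed under all 21 alternatives, at -0.99 to -0.81. That against TRACK missed the threshold without any 1 of TRACK 1, 2 and 3 (-0.51, -0.44 and -0.46) and without GCERAdT 1 or 2 (-0.40 and -0.49), with a highest adjusted p of 0.122, and the excess of GCERAd over TRACK missed it without TRACK 1 (0.42, adjusted p = 0.0633).

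The Ugt3a genes lie side by side on the plus strand of chromosome 15, and Ugt3a2 (chr15:9335550-9370955) had the highest level of all Ugt members in every group per merged exon base, although in WT Ugt1a2 exceeded it per unshared base. It was at 1014, 1043, 1151, 920.1 and 1002 CPM in WT, 1438, 1593, 1625, 1749 and 1618 CPM in GCERAd, 1318, 1361 and 1265 CPM in TRACK and 1212, 1125, 1171 and 1356 CPM in the libraries labelled GCERAdT. WT lay below GCERAd and TRACK without overlap, and GCERAd lay above the libraries labelled GCERAdT. The changes were modest, at 1.58-fold for GCERAd (log2 0.66 ± 0.08, edgeR adjusted p = 0.000202) and 1.29-fold for TRACK (0.37 ± 0.08, adjusted p = 0.00354) over WT, and 1.31-fold lower in the libraries labelled GCERAdT than in GCERAd (-0.39 ± 0.09, adjusted p = 0.0159). The last change missed the threshold without GCERAdT 2 or 3 (-0.36 and -0.37, highest adjusted p = 0.0591), and the TRACK change did so with the replicate block (0.31, adjusted p = 0.0577). Ugt3a1 (chr15:9276888-9315032), 93.2% identical in coding sequence and using UDP-N-acetylglucosamine in its human counterpart, ranged from 145 to 265 CPM over all libraries. It passed the test in no comparison, with adjusted p from 0.0974 for GCERAd against WT (0.35 ± 0.14) upwards.

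**Figure D3:**
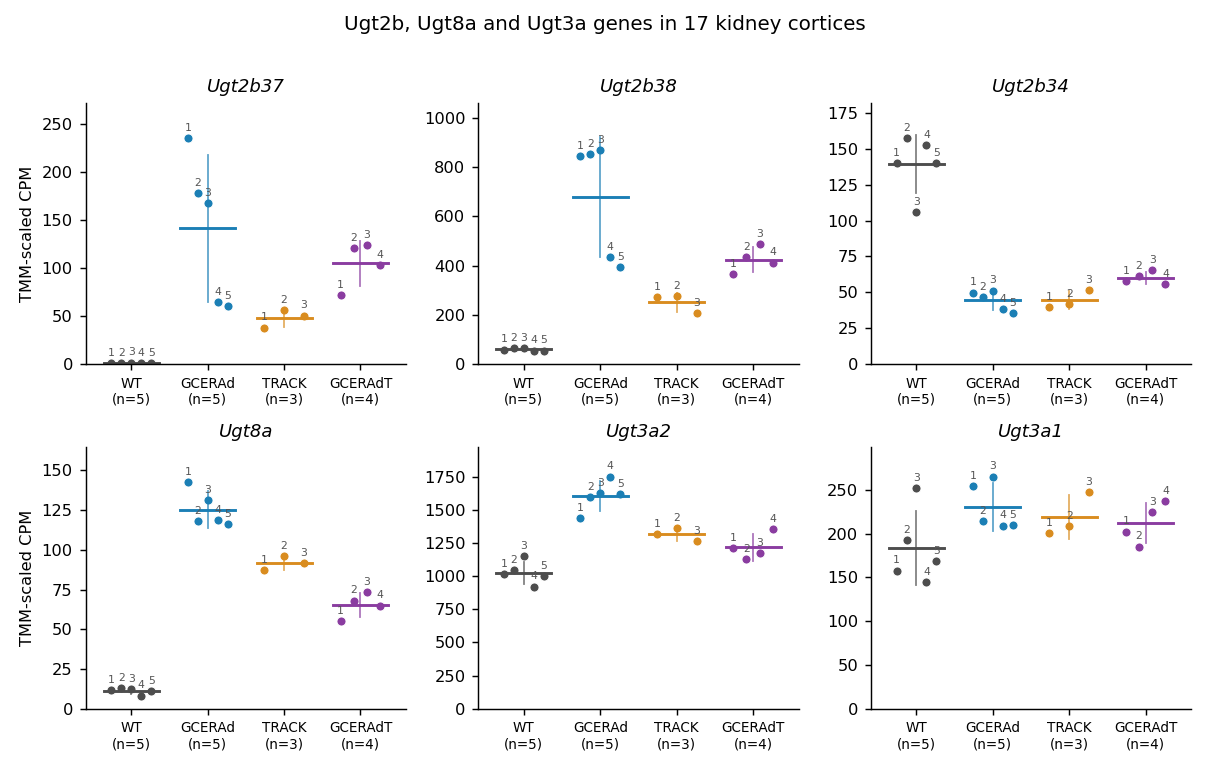
CPM (linear axis from 0, TMM-scaled) of 6 Ugt genes in each library, with bars at the group mean, lines of ± 1 SD and points numbered by replicate. Ugt8a separates all 4 groups, Ugt2b37 and Ugt2b38 are lowest in WT, Ugt2b34 is highest in WT, and Ugt3a1 overlaps in all groups.

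Among the sulfotransferases Sult1d1 (chr5:87554645-87569027, minus strand), which sulfates catecholamines in mice, had the highest level. It was at 1508, 2048, 1532, 1629.9 and 1807 CPM in WT, 996, 866, 1188, 1370.5 and 1648 CPM in GCERAd, 1545, 1643 and 1833 CPM in TRACK and 1001, 1119, 1525 and 1286 CPM in the libraries labelled GCERAdT. GCERAd overlapped WT through GCERAd 5, and its log2 fold change of -0.48 ± 0.17 (edgeR adjusted p = 0.0483) missed the threshold in 16 of 22 alternatives, among them RLE scaling with an adjusted p of 0.0513. Leaving out any 1 of the 5 WT libraries, or GCERAd 1, 2, 3 or 4, gave -0.52 to -0.38 with a highest adjusted p of 0.1. Libraries labelled GCERAdT lay below TRACK without overlap, at -0.42 ± 0.14, which did not pass the test (adjusted p = 0.108).

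Sult1a1, the phenol sulfotransferase (chr7:126672865-126676432, minus strand), was the Sult gene that distinguished TRACK. TRACK libraries were at 30.0, 34.7 and 38.6 CPM, those labelled GCERAdT at 18.4, 18.1, 15.4 and 19.3 CPM, WT at 23.0, 20.8, 19.7, 18.3 and 24.9 CPM and GCERAd at 8.08, 10.9, 10.4, 20.8 and 21.2 CPM. All TRACK libraries exceeded all others, and GCERAd 4 and 5 lay within the WT range while GCERAd 1, 2 and 3 lay below it. The log2 difference was -0.93 ± 0.11 for the libraries labelled GCERAdT against TRACK (edgeR adjusted p = 0.0017), 0.70 ± 0.11 for TRACK against WT (adjusted p = 0.000834) and -1.28 ± 0.30 for GCERAd against TRACK (adjusted p = 0.0209). The last was lost without GCERAd 3 (-1.19, adjusted p = 0.051), TRACK 2 (-1.27, 0.0671) or TRACK 3 (-1.18, 0.0709). With library kind as a covariate over all 17 libraries, TRACK against WT was 0.46 with an adjusted p of 0.216, and GCERAdT against TRACK was -0.78 with an adjusted p of 0.0789. GCERAd against WT was -0.57 ± 0.24 (adjusted p = 0.102).

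Sult1b1 (chr5:87513339-87538195, minus strand), which sulfates thyroid hormones, fell 1.53-fold in GCERAd, from 6.41, 8.76, 8.72, 7.73 and 7.97 CPM in WT to 5.61, 4.89, 5.51, 4.49 and 5.12 CPM without overlap (log2 -0.61 ± 0.12, edgeR adjusted p = 0.00312). It passed in no other comparison. TRACK was at 5.72, 7.85 and 6.92 CPM and libraries labelled GCERAdT at 5.04, 4.97, 6.71 and 6.56 CPM. Sult1c2 (chr17:53829637-53846339, minus strand) was at 68.9 to 82.8 CPM in WT (median 79.0), at 108, 97.3, 97.1, 75.5 and 68.7 CPM in GCERAd, at 70.6, 76.7 and 81.3 CPM in TRACK and at 61.5, 60.3, 60.0 and 73.9 CPM in the libraries labelled GCERAdT. The last were 1.39-fold below GCERAd (-0.48 ± 0.14, adjusted p = 0.0378) with overlap, and without GCERAd 1, 2 and 3 the difference was -0.14 (adjusted p = 0.427). It missed the threshold without any 1 of GCERAd 1, 2 and 3 (-0.43 to -0.40) and of GCERAdT 1, 2 and 3 (-0.46 to -0.44), with a highest adjusted p of 0.105.

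**Figure D4:**
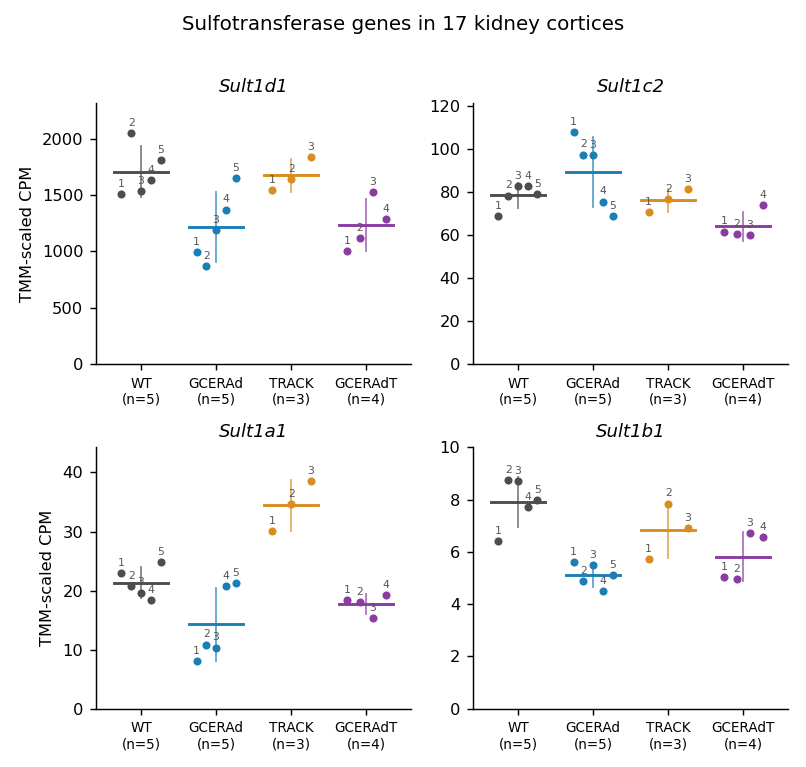
CPM (linear axis from 0, TMM-scaled) of the 4 detected Sult genes in each library, with bars at the group mean, lines of ± 1 SD and points numbered by replicate. Sult1a1 is highest in the 3 TRACK libraries (30.0 to 38.6 CPM), and Sult1b1 is lower in all GCERAd than in all WT libraries.

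The 22 members counted below 1 FPKM were examined only in a fit of all genes with enough counts, without the FPKM minimum. Their highest group mean was 0.522 FPKM, for Ugt2a3 in GCERAd. For GCERAd against WT, 15 members were fitted only there. They included Ugt2b5, which reached 1 FPKM only in other groups (log2 1.15 ± 0.46, edgeR adjusted p = 0.116). Of the 15 members 2 passed, where 15.2% of all genes passed in either direction. They were Ugt2a3, at 0.251 to 0.620 CPM in WT and 0.680 to 1.66 CPM in GCERAd without overlap (log2 1.24 ± 0.35, edgeR adjusted p = 0.0275), and Ugt1a6b (1.38 ± 0.37, adjusted p = 0.0205), whose coding sequence is 98.4% identical to that of Ugt1a6a. In TRACK against WT 1 of 14 such members passed (29.2% of all genes), and in GCERAdT against GCERAd 1 of 12 (10.1%). In both it was Sult3a2, which had no count in WT and GCERAd libraries, 0.368, 0.0877 and 0 CPM in TRACK and 0.131, 0.121, 0.343 and 0.0313 CPM in the libraries labelled GCERAdT, so that no fold is given. None of 12 such members passed in GCERAdT against TRACK (4.05% of all genes), where 2 had an unadjusted p under 0.05 and DESeq2 called 1, and none of 13 in GCERAd against TRACK (9.85%), where 4 had such a p and DESeq2 called 2. Sult2b1, a cholesterol sulfotransferase, had the highest level of these Sult genes, at 1.34 to 2.27 CPM in WT. Sult1e1, the estrogen sulfotransferase, had at most 0.405 CPM, in TRACK 1. No count was found in any library for Ugt2a1, Ugt2a2, Sult2a4, Sult2a5, Sult2a6 and Sult2a7, and 3 counts per library remain possible at this depth, which covers counting error only. For Ugt2a1 and Ugt2a2 this limit says little of expression, since 98.8% and 94.5% of their exon bases are shared with another gene and reads there may not have been counted.

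A further list held 31 genes that supply or control conjugation: genes of UDP-glucuronic acid supply, of sulfate and PAPS supply, conjugate exporters, the β-glucuronidase gene Gusb and transcription factors. For GCERAd against WT, 10 of 30 tested were higher and 3 lower, where 14.1% and 13.5% of all genes were. Of the 4 genes of UDP-glucuronic acid supply, Slc35d2 (log2 0.81) and Ugp2 (0.45), which makes UDP-glucose, were higher. Among the exporters Abcc3 was lower (-4.99, edgeR adjusted p = 1.4e-06), as was Abcc4 (-1.05), whereas Abcc2 (0.67) and Abcg2 (0.48) were higher. Papss2, a PAPS synthase, was lower (-0.58) and the sulfate transporter gene Slc26a2 higher (0.60). Of the transcription factors Esr1, the estrogen receptor α gene, was 2.83-fold higher, and Nr3c1, the glucocorticoid receptor gene, was also higher (log2 0.42).

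In TRACK against WT, 9 of 29 tested genes of this list were higher and 7 lower, where 23% and 22.6% of all genes were. Comparing the libraries labelled GCERAdT with TRACK, where 2.81% of all genes were higher and 4.28% lower, 1 of 29 was higher, the exporter gene Abcc4 (0.60), and 2 were lower, Slc35d1 (-0.36), which carries UDP-glucuronic acid into the endoplasmic reticulum, and Papss2 (-0.39). Against GCERAd, the libraries labelled GCERAdT had 2 of 29 genes higher and 9 lower, where 9.39% and 9.79% of all genes were. The higher ones were Ahr (0.50) and Slc26a6 (0.59). Papss2 (-0.98), the sulfate transporter genes Slc26a1 (-1.19) and Slc26a2 (-0.44), Bpnt1 (-0.58), Slc35d1 (-0.48), Abcg2 (-0.58), Esr1 (-1.01), Hnf4a (-0.46) and Gusb (-0.29) were lower. In GCERAd against TRACK 7 of 30 were higher and 1 lower, where 8.68% and 9.42% of all genes were, and the count of both directions was 2 to 7 when 1 library was left out.

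Markers of cell types moved with some of these groups, and only some of the marker lists are given in full here. Of the other lists in TRACK against WT, both distal convoluted tubule markers and 2 of 3 intercalated cell markers were lower. There, 1 of 3 podocyte markers and 1 of 2 tested adipocyte markers were higher, and no tested leukocyte marker was called by edgeR. Of all genes, 23% were higher and 22.6% lower. The 6 proximal tubule markers summed to 5649 to 7188 CPM in WT, 6705 to 9755 in GCERAd, 3421 to 4189 in TRACK and 3839 to 4727 in the libraries labelled GCERAdT, and none of them was at 0 in a group. Of these 6 genes, 2 were higher in GCERAd than in WT, 3 were lower and 1 higher in TRACK than in WT, 3 were lower in the libraries labelled GCERAdT than in GCERAd, and 0 were called between the libraries labelled GCERAdT and TRACK in edgeR, where 2 had an unadjusted p under 0.05 and DESeq2 called 2. The 3 endothelial markers summed to 160.5 to 190.5 CPM in WT, 187 to 217 in GCERAd, 298 to 328 in TRACK and 249.7 to 275 in GCERAdT libraries, and all 3 were higher in TRACK than in WT and in GCERAdT libraries than in GCERAd. The 2 principal cell markers summed to 647 to 813 CPM in WT and to 219 to 429.7 CPM in GCERAd, 320 to 374 in TRACK and 151 to 339 in GCERAdT libraries, and both were lower in GCERAd and in TRACK than in WT. The 2 thick ascending limb markers summed to 5074 to 7803 CPM in WT, 3343 to 4663 in GCERAd, 3449 to 6010 in TRACK and 4023 to 4576 in GCERAdT libraries, and both were lower in GCERAd and 1 in TRACK than in WT. The 3 hepatocyte markers, of interest because liver expresses most members strongly, summed to 59.1 to 81.4 CPM in WT, 60.1 to 75.2 in GCERAd, 135 to 205 in TRACK and 75.1 to 107.5 in GCERAdT libraries, with Ttr the only 1 of them called in TRACK against WT (log2 1.94) and in GCERAdT against TRACK (-1.09). Ugt2b1 and Sult2a1, members typical of liver, were at most at 0.0745 and 0.484 CPM, both in WT 4. Sult2a8 was at 0.205 CPM in WT 4 and 0.193 CPM in TRACK 2, and Ugt2b36 at 0.168 CPM in WT 4 and 0.123 CPM in TRACK 2. The part of these shifts in the changes of the members was not tested.

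Finally, the contrast of the libraries labelled GCERAdT with TRACK, in which Atf4 counts were not lower, was compared with that of GCERAd with WT in 1 fit of all 17 libraries. Of 15 members tested, 3 differed upwards and 5 downwards, where 12.3% and 12.8% of all genes did, with a median of -0.43 for the members and 0.02 for all genes. None of 17 members fitted without the FPKM minimum passed in edgeR (12.7% of all genes), where 3 had an unadjusted p under 0.05 and DESeq2 called 0. The difference was 7.65 ± 1.11 for Ugt1a2 (edgeR adjusted p = 0.000137), 3.46 ± 0.79 for Ugt1a1 (adjusted p = 0.0046) and 2.10 ± 0.20 for Ugt2b34 (adjusted p = 1.54e-06). It was -5.90 ± 0.53 for Ugt2b37 (adjusted p = 8.74e-07), -3.94 ± 0.17 for Ugt8a (adjusted p = 9.03e-11) and -2.74 ± 0.31 for Ugt2b38 (adjusted p = 1.25e-05), with smaller negative differences for Ugt1a7c (-1.42) and Ugt3a2 (-0.75). Sex differs within the second contrast and not within the first by the levels of Xist and Ddx3y, so genotype and sex cannot be told apart in this difference. For Ugt8a, the contrast was positive against WT and negative within TRACK mice, whereas Ugt2b37 and Ugt2b38 rose in both. The calls of these genes within TRACK mice were lost with library kind as a covariate over all 17 libraries. That of Ugt8a was lost in 8 of 15 alternatives.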

How the data were processed

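The authors deposited 1 table of raw counts per gene for the 17 libraries. Reads had been demultiplexed with bcl2fastq 2.20, trimmed with cutadapt, aligned to GRCm38 with STAR and counted with HTSeq, per the labels. The annotation release, the strand setting and the treatment of reads that match several genes are not given in the sources used here. All 17 columns were matched to samples by name, and groups came from the sample labels.

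CPM and FPKM were computed here from the counts deposited by the authors, with TMM scaling and, for FPKM, the merged exon length of GENCODE M21, which gave a length to 48435 identifiers and none to 360. Each comparison was fitted on the libraries of its groups with edgeR 4.0.16 (R 4.3.3, limma 3.58.1), by the quasi-likelihood test with Benjamini-Hochberg adjustment over all genes with a mean of at least 1 FPKM in either group. For members below this limit, another model covering every gene with 10 or more counts was used. The difference of the ATF4 KO contrasts used all 17 libraries. A call is an adjusted p of at most 0.05. Alternatives were DESeq2 1.42.0, RLE scaling, a minimum of 0.1 FPKM or none, the replicate block, all libraries in 1 fit and each library left out. Library kind, possible repeat libraries and the leaving out of GCERAd 1, 2 and 3 or of GCERAd 4 and 5 were added after seeing the data. Levels of the Ugt1a genes per unshared exon base were also added then. The procedure was tested on simulated counts.

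Members and lists were chosen with earlier results of these data known. Named members are the 4 highest of each family by mean FPKM, the 4 largest called rises and falls of each comparison and the 6 largest called differences of the contrasts, and the values of the detected members outside that rule were added. Replicate numbers paired GCERAdT with GCERAd by the rule used, since the deviations of same-numbered libraries correlated at 0.417, 0.554, 0.538 and 0.387. Same-numbered libraries of these 2 groups were also of the same library kind. Pairing and library kind therefore cannot be told apart in these correlations. Each library carries its own replicate number, although the protocol speaks of 3 to 4 mice per cohort. Some sample names in the study's sequencing summary recur with a letter added. Libraries may therefore not all be separate mice, and p-values measure the spread between libraries. Depth was 53688512 to 71364561 counts per library. The protein sequences of the members were not used here, the steroid sulfatase gene was not analysed here, and 1 gene of the supply and control list and 1 motif are not reported here.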

Additional observations from a re-analysis of the deposited data

Results flagged for a closer look

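In 45 groups of 4 or 5 libraries, 3 values stood apart from the rest of their group, where chance gives about 1 in 20. Ugt1a2 was at 12.0 CPM in GCERAd 1, far above the 4 other GCERAd libraries. Sult1c2 was at 73.9 CPM and Ugt1a7c at 223 CPM in GCERAdT 4, each above the 3 other libraries of that label.

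The contrast of the libraries labelled GCERAdT with TRACK, in which Atf4 counts were not lower, differed from that of GCERAd with WT for 8 members, by edgeR's quasi-likelihood test of the difference over all 17 libraries. On the log2 scale the difference was 7.65 for Ugt1a2, 3.46 for Ugt1a1 and 2.10 for Ugt2b34. It was -5.90 for Ugt2b37, -3.94 for Ugt8a, -2.74 for Ugt2b38, -1.42 for Ugt1a7c and -0.75 for Ugt3a2. The WT libraries lacked Ddx3y counts and those of the other 3 groups held them, so sex cannot be told apart from genotype here.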

How the results depend on the processing

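Of the 37 calls picked by the naming rule, 16 held under every alternative run, and none of 741 alternative values turned direction while 89 lost the call. Calls of detected members outside that rule are not in this tally. Among them, Sult1d1 for GCERAd against WT lost the call in most alternatives. Ugt1a7c and Sult1a1 for TRACK against WT lost it with library kind as a covariate over all libraries. With only libraries of 1 kind (kind B, the higher pseudogene share), a single WT library was left, so no count is given for comparisons with WT. The number of members called was 3 for GCERAdT against TRACK, 1 for GCERAdT against GCERAd and 3 for GCERAd against TRACK. All genes called were 221, 349 and 1043 in these fits, compared with 846, 2266 and 2126 in the main fits. For GCERAdT against TRACK the members called were 3, all of them lower, with all 17 libraries in 1 fit. With library kind as a covariate in that fit they were 0 (edgeR, 6 at an unadjusted p under 0.05). All genes called there were 811 and 825. For GCERAdT against GCERAd, 3 members were called with possible repeat libraries summed, where 1731 of all genes were. For GCERAd against TRACK the members called were 7 by DESeq2, 9 with all 17 libraries in 1 fit, 10 with library kind added and 8 without GCERAd 4 and 5. All genes called in these fits were 2962, 3239, 3452 and 4442, compared with 2126 in the main fit. Leaving out 1 library gave 9 to 11 for GCERAd against WT, 3 to 6 for GCERAdT against TRACK, 1 to 6 for GCERAdT against GCERAd, 10 to 11 for TRACK against WT, 1 to 5 for GCERAd against TRACK and 8 to 9 for the difference of contrasts. Counts of all genes are not given for the fits with 1 library left out, so their changes are not read as particular to the members. The cause was not tested.

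With the replicate block, which keeps only the numbers both groups share, 8 members were called for GCERAdT against GCERAd and 8 for GCERAd against TRACK, compared with 6 and 4 without it, and 9, 4, 9 and 9 for GCERAd against WT, GCERAdT against TRACK, TRACK against WT and the difference. All genes called for the first 2 were 3731 and 3782 with the block, compared with 2266 and 2126 without it. For the other 4 they were 2106, 745, 3382 and 2335 with the block. Numbers paired the libraries by their correlations only for GCERAdT against GCERAd, where the same numbers also held the same library kind. In the other pairs they are shared numbers only. A fit of library kind within a pair of groups could not be made for comparisons with TRACK, which holds 1 kind.

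Of the 31 supply and control genes, calls with kind B libraries alone were 0 for GCERAdT against TRACK (edgeR, 3 at an unadjusted p under 0.05), 1 for GCERAdT against GCERAd and 4 for GCERAd against TRACK. The replicate block gave 1 for GCERAdT against TRACK and 9 for TRACK against WT, and library kind as a covariate over all libraries gave 1 for GCERAdT against TRACK. For GCERAd against TRACK there were 5 with no FPKM minimum, 4 with repeat libraries summed and 14 without GCERAd 4 and 5. Leaving out 1 library gave 11 to 15 for GCERAd against WT, 0 to 3 for GCERAdT against TRACK and 8 to 12 for GCERAdT against GCERAd. It gave 11 to 16 for TRACK against WT, 2 to 7 for GCERAd against TRACK and 9 to 12 for the difference. These counts are not set beside the share of all genes, so their changes are not read as particular to the list.

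Limits are the confounding of sex with genotype in comparisons with WT, few libraries of TRACK, all of 1 kind, shared or near-identical sequence among members, and members under 1 FPKM, where differences were often not detectable at this depth.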
